A study of Rattus norvegicus with 6 samples.

Results

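The immediate early transcription factors are genes that cells switch on within minutes of a stimulus, from proteins already present and without new protein synthesis. Their members here were Fos, Fosb, Jun, Junb and Atf3, Egr1, Egr2 and Egr3, Nr4a1 and Ier2. They were listed by gene name, with earlier results of these arrays already known. All 10 were measured, with 14 probe sets that are each annotated to exactly 1 gene, among 14217 genes and 31042 probe sets tested.

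Heart RNA came from males of both strains. Dahl S rats are inbred and salt-sensitive, and S.LEW(10)x12x2x3x5 congenic rats are Dahl S rats that carry Lewis DNA over part of chromosome 10. Rats of both strains shared a birth date, were weaned at 30 days, ate chow with 0.3% salt, were caged as mixed pairs of the strains and were 53 days old at collection. Each strain gave 3 Affymetrix arrays, each with RNA pooled from the hearts of 2 rats, so that 6 animals stood behind a strain. None of the 10 members lies on chromosome 10 in the RefSeq annotation of assembly GRCr8. Values are log2 expression per probe set, and differences are congenic minus Dahl S.

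Growth factor, calcium and stretch signals reach these genes through kinases that act on serum response factor with its Ets-family partners, bound at CArG boxes, and on CREB, bound at cyclic AMP response elements. Fos and Jun family proteins pair through leucine zippers to form AP-1, Egr proteins bind GC-rich DNA through zinc fingers, and Nr4a1 is an orphan nuclear receptor. In the heart they are known as an early transcriptional response to pressure load, to adrenergic stimulation and to handling of the tissue.

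Promoters of some members are shown as a description of sequence, and no link between them and the levels below was tested. RefSeq promoters in the GRCr8 table were found for 6 of the 10 members, Fosb, Junb, Egr1, Egr2, Nr4a1 and Ier2. The 250 bases before the gene start of 4 of them are given, 5′ to 3′ on the gene's strand, with capitals on CArG boxes and on TGACG in either orientation, the core of the cyclic AMP response element.
Egr1, chr18:26736828-26737077, plus strand: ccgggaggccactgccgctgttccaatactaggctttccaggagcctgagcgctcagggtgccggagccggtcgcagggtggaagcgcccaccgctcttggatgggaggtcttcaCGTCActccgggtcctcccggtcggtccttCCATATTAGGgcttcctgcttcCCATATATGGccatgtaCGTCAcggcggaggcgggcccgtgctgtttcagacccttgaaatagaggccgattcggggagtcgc
Egr2, chr20:21054442-21054691, minus strand: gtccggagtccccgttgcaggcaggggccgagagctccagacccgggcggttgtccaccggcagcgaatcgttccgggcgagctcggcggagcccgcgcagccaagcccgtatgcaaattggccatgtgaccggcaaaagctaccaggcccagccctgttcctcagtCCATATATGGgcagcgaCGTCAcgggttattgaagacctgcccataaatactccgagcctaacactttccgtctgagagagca
Nr4a1, chr7:134259888-134260137, plus strand: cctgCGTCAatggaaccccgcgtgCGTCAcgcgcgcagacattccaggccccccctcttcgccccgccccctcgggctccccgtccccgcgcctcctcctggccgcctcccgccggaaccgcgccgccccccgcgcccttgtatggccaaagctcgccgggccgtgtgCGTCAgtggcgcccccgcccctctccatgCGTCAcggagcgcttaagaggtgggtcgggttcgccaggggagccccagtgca
Ier2, chr19:40399123-40399372, plus strand: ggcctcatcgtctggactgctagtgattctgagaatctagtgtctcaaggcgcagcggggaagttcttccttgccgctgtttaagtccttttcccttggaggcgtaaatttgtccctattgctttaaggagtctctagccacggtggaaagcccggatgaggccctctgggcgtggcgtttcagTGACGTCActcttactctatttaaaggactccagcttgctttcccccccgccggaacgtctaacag

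Egr1 and Egr2 carried a CArG box with the same letters at the same place, CCATATATGG from 83 to 74 bases before the gene start, and TGACG on the opposite strand from 66 to 62 bases before it. Egr1 held another CArG box, CCATATTAGG, from 105 to 96 bases before its start. A CArG box was present in 2 of the 6 member promoters and in 501 of all 33469 promoters searched over the same 250 bases on both strands. TGACG was present in 5 of the 6, Fosb being the exception, and in 18.2% of all promoters. Nr4a1 held 4 copies of it, all on the opposite strand. The full palindrome TGACGTCA, which overlaps TGACG in both orientations, was present in Ier2 alone of the 6 and in 1.59% of all promoters. TGANTCA, the AP-1 motif read with any base at its centre, was found in 0 of the 6 and in 6.34% of all promoters. A match is a description of letters and not of a bound site.

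Depth has no direct counterpart on arrays, and their number limits the precision. Correlations between arrays ran from 0.993 to 0.998. Of 10 listed cardiomyocyte markers 9 were measured, all brighter than the median probe set, with list means of 14.4 to 14.5 on each array. Dahl S array 3 and congenic array 2 stood apart from the other 4. The spiked hybridization controls averaged 11.54 and 11.55 on them, against 10.67 to 10.83 elsewhere. Scgb1a1, a secretory protein of the airway lining, read 9.14 and 10.16 there, and 5.02 to 5.41 on the others. Adipocyte markers (7 of 8 measured) were highest on these arrays, with list means of 9.21 and 8.98 against 7.81 to 8.60. Lymphocyte markers (9 of 10 measured) averaged 7.87 on Dahl S array 3, 7.02 on congenic array 1 and 6.23 to 6.35 on the other 4. The T cell gene Cd3d read 8.11 and 7.87 on those arrays and at most 5.95 elsewhere. Differences without these arrays are given for Egr1, Egr2, Egr3 and Ier2 below. The 3′ to 5′ difference of the beta-actin control probe sets, a measure of RNA integrity, ran from 0.997 to 1.07 in Dahl S and from 1.01 to 1.05 in the congenic hearts.

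Over the members as a whole, the strain differences were small and 0 of 14 probe sets passed. The largest was that of Egr1, 1.17-fold higher in the congenic heart. With limma and Benjamini-Hochberg adjustment over all 31042 probe sets, the members' adjusted p ran from 0.731 to 0.998, beside 11 probe sets called in all (0.0354%). With an intensity trend in limma's variance the members' count was also 0. At an unadjusted p under 0.05 there were 3 member probe sets, of Egr1, Jun and Ier2, all higher in the congenic heart, where 3.57% of all probe sets were higher at that level (6.67% in either direction). None was lower at that level, against 3.1% of all. In 4 of the 14, those 3 and Nr4a1, the strains' arrays did not overlap and the congenic ones were higher, which was so for 5.83% of all probe sets. In 0 were they lower without overlap, against 6.9% of all. With 1 probe set per gene, 0 of 10 members were called (0.0352% of genes). The unadjusted p was under 0.05 for 3 with a higher level (3.47% of genes) and for 0 with a lower one (3.55%), and 4 were higher (5.89%) and 0 lower (8.75%) without overlap. The median difference over the 10 genes, each read on its probe set of highest mean, was 0.07, with 8 above 0, and over all genes it was -0.0068.

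**Figure D1:**
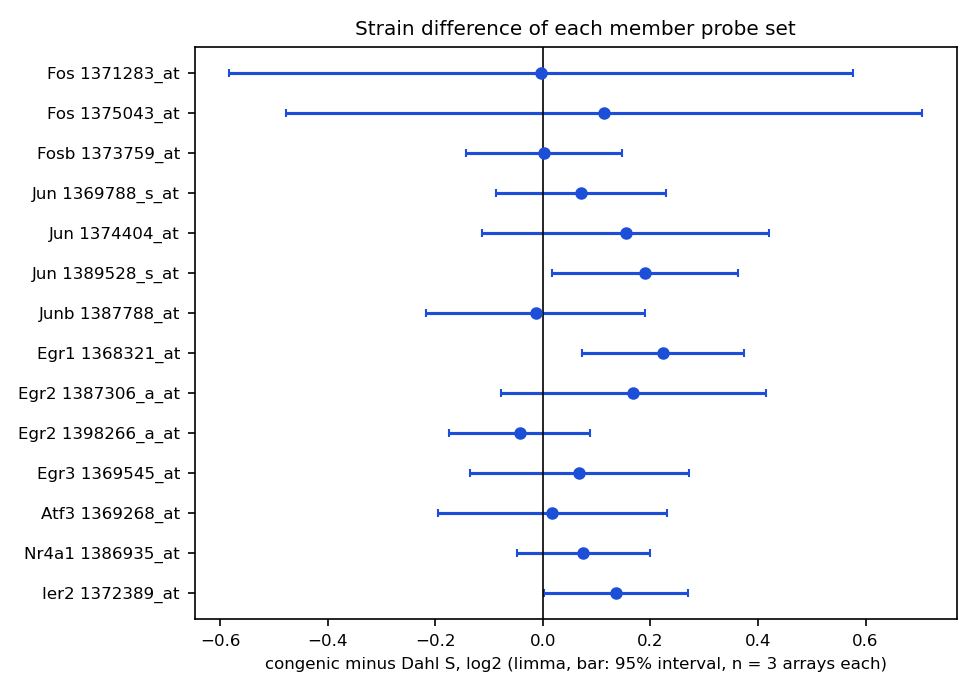
Strain difference of each of the 14 member probe sets on the log2 scale, congenic minus Dahl S, with the 95% interval from limma (3 arrays per strain). The intervals of Egr1, Jun 1389528_s_at and Ier2 lie above 0, and those of both Fos probe sets are the widest.

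Egr1, a zinc-finger activator of growth and matrix genes, had log2 levels of 8.70, 8.77 and 8.79 on Dahl S arrays 1, 2 and 3 and of 8.88, 8.98 and 9.06 on congenic arrays 1, 2 and 3. The groups did not overlap. The means were 8.75 ± 0.042 and 8.98 ± 0.089 (SD, n = 3 each), a difference of 0.22 (SE 0.06, 95% interval 0.07 to 0.37). Its unadjusted p of 0.00928 ranked 393rd of 31042 probe sets, and the limma adjusted p was 0.731. With 1 array left out the difference ran from 0.18 to 0.27, and it was 0.24 without Dahl S array 3 and congenic array 2 together and 0.20 between those arrays alone. In the same fit, some fibroblast and macrophage markers also had an unadjusted p under 0.05. The fibroblast list (10 of 10 measured, 2 higher and none lower at that p) had means of 11.57 to 11.76 in Dahl S and 11.71 to 11.91 in the congenic hearts. The macrophage and myeloid list (11 of 11 measured, 4 higher and 0 lower) had means of 7.55 to 7.76 and 7.77 to 7.87. Markers of mesothelial (2 of 7 measured), neural and Schwann (3 of 6), erythroid (2 of 5), neutrophil (2 of 5), endothelial (1 of 9) and adipocyte (1 of 7) cells were also higher at that level, where 3.47% of all genes were, and none of these lists held a lower one. Other members of these lists lay below 0 without reaching that p, such as the neutrophil genes Camp (-0.055) and Fcnb (-0.15). Of the 7 adipocyte markers 6 lay below 0, with a list median of -0.11, and the higher one was Lep. Markers of cardiomyocytes (9 measured), mural and smooth muscle cells (10) and lymphocytes (9) had 0 at that p, higher or lower. Below 0 lay 9 of the cardiomyocyte, 2 of the mural and smooth muscle and 8 of the lymphocyte markers. The part of these cell types in the Egr1 difference was not tested. In pooled heart RNA a change in the number of cells of a type and a change in RNA per cell cannot be told apart.

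Egr2 and Egr3, relatives of Egr1 that bind the same kind of site, were read on dimmer probe sets. Egr2 on 1387306_a_at read 5.52, 5.73 and 5.68 on the Dahl S arrays and 5.73, 6.04 and 5.67 on the congenic arrays, in the same order of arrays. Congenic array 2 was highest and the groups overlapped. The difference was 0.17 (95% interval -0.08 to 0.41, limma adjusted p = 0.815), and 0.07 without Dahl S array 3 and congenic array 2. The other Egr2 probe set, 1398266_a_at, lay between 3.93 and 4.06 on all arrays and differed by -0.04 (95% interval -0.17 to 0.09). Egr3 read 5.28, 5.10 and 5.23 in Dahl S and 5.27, 5.41 and 5.13 in the congenic hearts. The difference of 0.07 (95% interval -0.14 to 0.27) was 0.01 without those arrays.

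Jun, the AP-1 subunit that can act as a homodimer, was bright on 2 of its 3 probe sets. On 1389528_s_at it read 9.35, 9.42 and 9.44 on Dahl S arrays 1, 2 and 3 and 9.48, 9.57 and 9.72 on congenic arrays 1, 2 and 3. No congenic array overlapped with Dahl S, and the means of 9.40 ± 0.048 and 9.59 ± 0.12 (SD, n = 3 each) differed by 0.19 (SE 0.07, 95% interval 0.02 to 0.36, unadjusted p = 0.0350, limma adjusted p = 0.736). The other Jun probe sets overlapped between strains. On 1369788_s_at the arrays ran from 9.38 to 9.48 in Dahl S and from 9.40 to 9.57 in the congenic hearts, a difference of 0.07 (95% interval -0.09 to 0.23). On 1374404_at they ran from 7.25 to 7.66 and from 7.48 to 7.74, a difference of 0.15 (95% interval -0.11 to 0.42). That difference was 0.059 without Dahl S array 1, 0.077 without congenic array 2 and 0.26 without Dahl S array 3. Dahl S array 1 was the lowest of the 6 on all 3 Jun probe sets. Without congenic array 3, the highest on 1389528_s_at, the difference there was 0.12.

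Junb and Atf3 showed no detectable difference at this number of arrays. Junb, a Jun relative that can restrain Jun, read 8.51, 8.72 and 8.64 in Dahl S and 8.50, 8.56 and 8.76 in the congenic hearts, a difference of -0.01 (95% interval -0.22 to 0.19). Atf3, a stress-induced bZIP factor, read 6.12, 6.16 and 5.96 against 5.97, 6.07 and 6.26, a difference of 0.02 (95% interval -0.19 to 0.23). Both differences changed sign when some arrays were left out. Fosb, a Fos relative, lay between 4.37 and 4.51 on all 6 arrays (percentile 16.4 of all probe sets by level) and differed by 0.0025 (95% interval -0.14 to 0.15).

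Nr4a1 and Ier2 varied least between pools of a strain among the 10 genes. Nr4a1 read 8.20, 8.17 and 8.17 in Dahl S and 8.24, 8.23 and 8.30 in the congenic hearts, without overlap, a difference of 0.08 (SE 0.05, 95% interval -0.05 to 0.20, limma adjusted p = 0.830). Its SD within a strain, 0.03, was among the lowest of all genes (percentile 4.71). The limma interval is wider than these values alone would give, because the fit draws each variance toward that of all probe sets. Ier2, a small nuclear protein that serves as a co-regulator, read 7.46, 7.45 and 7.50 against 7.65, 7.54 and 7.64, a difference of 0.14 (SE 0.06, 95% interval 0.0025 to 0.27, unadjusted p = 0.0467, limma adjusted p = 0.744). It was 0.19 without Dahl S array 3 and congenic array 2, and 0.03 between those arrays alone.

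**Figure D2:**
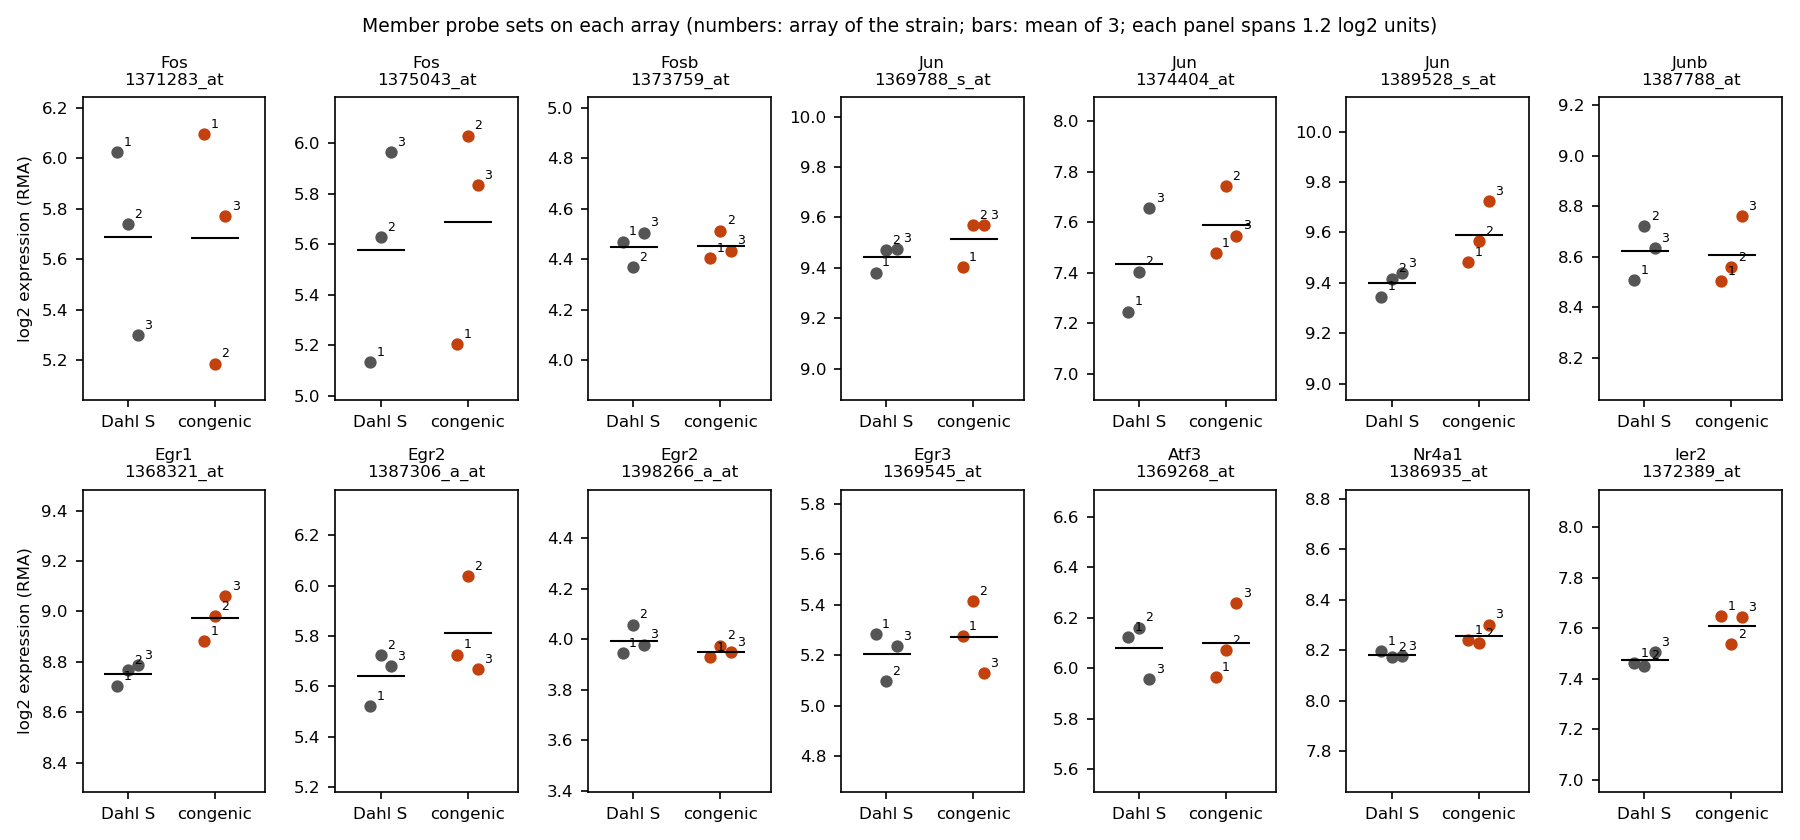
Log2 expression of the 14 member probe sets on each of the 6 arrays, Dahl S in grey and congenic in orange, numbered by array, with the mean of 3 as a bar and the same span of log2 units in every panel. Egr1, Jun 1389528_s_at, Nr4a1 and Ier2 have no overlap between strains, and the Fos probe sets have the widest spread.

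Fos, the AP-1 subunit that needs a Jun partner, had the member probe sets that varied most between pools, and they ran in opposite directions. Both were dimmer than the median probe set, 1371283_at at percentile 37.0 by level and 1375043_at at 36.1. On 1371283_at Fos read 6.03, 5.74 and 5.30 on Dahl S arrays 1, 2 and 3 and 6.10, 5.19 and 5.77 on congenic arrays 1, 2 and 3. On 1375043_at it read 5.13, 5.63 and 5.96 in Dahl S and 5.20, 6.03 and 5.84 in the congenic hearts. Arrays 1 of both strains were the highest on the first and the lowest on the other, and Dahl S array 3 and congenic array 2 were the reverse.

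Over the 6 arrays the Fos probe sets had a Pearson r of -0.914 (exact permutation p = 0.0250, two-sided) and a Spearman rho of -0.886 (exact permutation p = 0.0333), with an adjusted p of 0.435 and 0.506 over all 91 pairs of member probe sets. Without the 2 arrays farthest from the median, which were Dahl S array 3 and congenic array 2, r was -0.918, and it was -0.926 on values centred on each strain's mean. With any 1 array left out it ran from -0.981 to -0.879. Among the 9597 pairs of probe sets on this array that share 1 gene, the median r was 0.144, and among the 161 of them in which both varied by at least 0.5 it was 0.791. In those 161 pairs 24 had r below 0, and the Fos pair had the lowest. The annotation gives both probe sets the gene Fos, and which of them reads the Fos transcript is not settled by these values.

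Neither Fos probe set differed detectably between the strains. The difference was -0.0036 (95% interval -0.58 to 0.58) on 1371283_at and 0.11 (95% interval -0.48 to 0.71) on 1375043_at, with limma adjusted p of 0.998 and 0.953. These intervals reach 1.49-fold and 1.63-fold higher in the congenic heart. The SD within a strain was 0.42 on each, against a median of 0.08 over all genes, and that of 1371283_at was at percentile 99.3.

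The Fos readings on Dahl S array 3 and congenic array 2 came with high signals of some airway genes. Scgb1a1 was high on the arrays where 1371283_at was lowest and 1375043_at highest. So was Bpifa1, another airway secretory gene, at 8.91 and 9.05 there against 5.69 to 6.52 on the other arrays. A list of airway and lung genes, drawn up after these values had been seen, had 10 measured genes. Of these, 3 were higher on both of those arrays than on any other, the third being Scgb3a1. Scgb1a1 and Bpifa1 were also among the 5 genes most opposed to 1371283_at (r of -0.936 and -0.944). These 5 came from 429 genes brighter than the median probe set that varied by at least 0.5. Their likeness to Fos is therefore not separate evidence. On the other 4 arrays Scgb1a1 lay between 5.02 and 5.41, and 1375043_at ran from 5.13 to 5.84. Adipocyte medians, relative to each gene's mean, were -0.77, 0.05 and 0.83 on the Dahl S arrays and -0.34, 0.68 and -0.40 on the congenic arrays. They had the sign of 1375043_at on 4 arrays and differed from it on Dahl S array 2, where both were near 0, and on congenic array 3. As given above, r between the Fos probe sets was -0.918 over the 4 arrays without Dahl S array 3 and congenic array 2. The part of these tissues in the Fos readings was not tested.

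**Figure D3:**
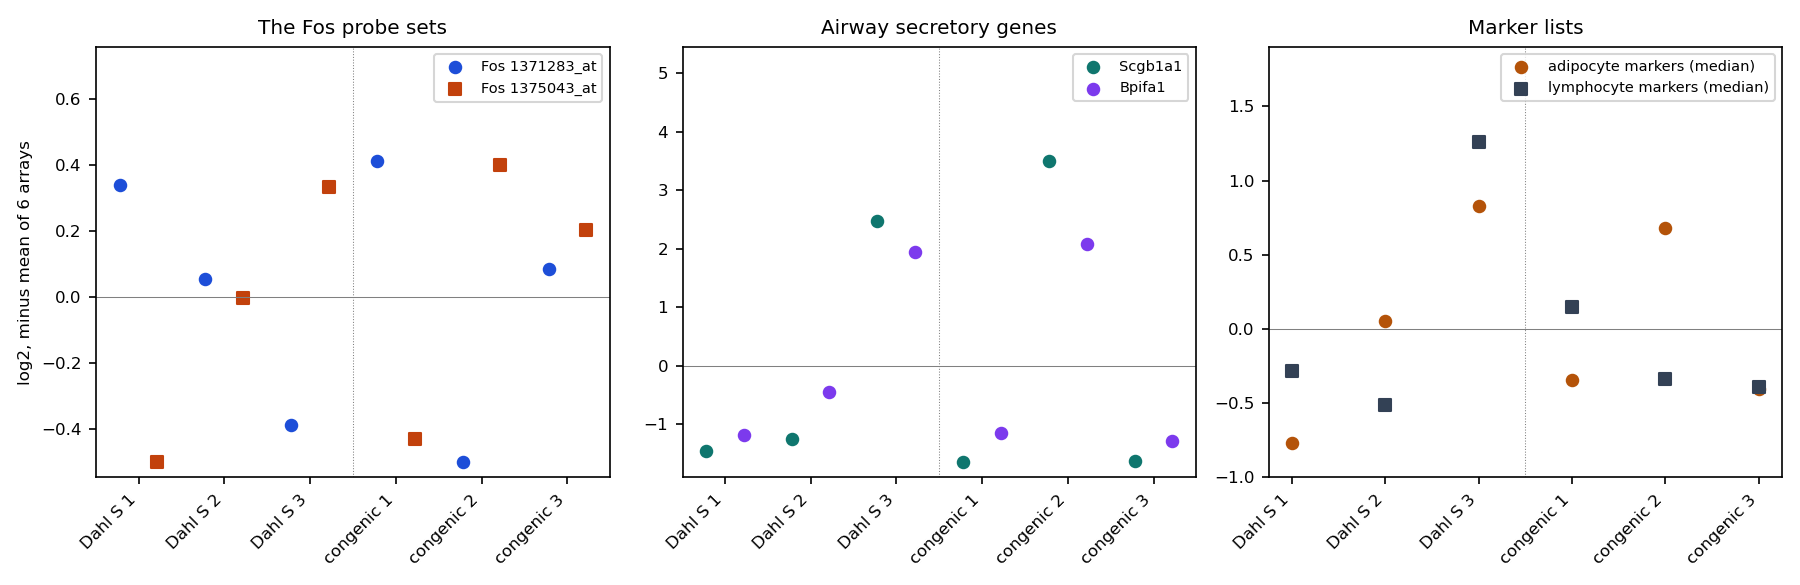
Log2 values minus the mean of the 6 arrays for the Fos probe sets (left), the airway genes Scgb1a1 and Bpifa1 (middle) and the medians of the adipocyte and lymphocyte marker lists (right), with a dotted line between the strains. The Fos probe sets lie far apart on opposite sides of 0 on array 1 of each strain, Dahl S array 3 and congenic array 2, and the airway genes stand out on Dahl S array 3 and congenic array 2.

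Co-variation between members was strongest for Jun and Egr1. With 1 probe set per gene there were 45 pairs, of which 4 had r of at least 0.8 (8.89%), against 3.71% of the pairs of all genes, and 0 had r of -0.8 or less. The median r was 0.12. Jun, Egr1, Nr4a1 and Ier2 made up all 4 pairs. Jun and Egr1 ranked the 6 arrays in the same order, with r of 0.971 (exact permutation p = 0.00139, the smallest that the 720 orders can give) and rho of 1 (exact permutation p = 0.00278). Adjusted over the 45 pairs these were 0.0625 and 0.125. A single pair could not pass 0.05 in this design, since the smallest exact p gives 0.0625 after adjustment, so the adjusted values say nothing about the strength of the relation. For this pair r was 0.974 on strain-centred values and 0.989 without the 2 arrays farthest from the median of Jun. It was 0.985 without Dahl S array 3 and congenic array 2, and 0.794 and 0.615 with the other Jun probe sets.

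The remaining 3 pairs at that level were lower on strain-centred values. Nr4a1 had r of 0.885 with Jun (exact permutation p = 0.0250), 0.879 with Egr1 (exact permutation p = 0.0208) and 0.860 with Ier2 (exact permutation p = 0.0222), each with an adjusted p of 0.281. Centred, these were 0.676, 0.518 and 0.478. Egr1 and Ier2 went from 0.775 to 0.019. Junb had r of 0.512 with Jun and 0.333 with Egr1 over the 6 arrays, and 0.904 and 0.869 on centred values. Uncentred values were also read without the 2 arrays farthest from the median of 1 gene of the pair. With the arrays chosen on Jun, r with Jun was -0.678 for Junb and 0.776 for Nr4a1. Junb with Egr1 had 0.020 with the arrays chosen on Junb, and Nr4a1 with Egr1 had 0.683 with those chosen on Egr1. The arrays left out depend on the pair, and no difference between these correlations was tested. The lowest pair was Junb with Egr3, at r of -0.788 (exact permutation p = 0.0750, adjusted p = 0.570).

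The AP-1 partners Fos and Jun were paired or opposed depending on the Fos probe set. Fos on 1375043_at had r of 0.880 with Jun 1369788_s_at and 0.857 with Jun 1374404_at (exact permutation p = 0.0319 and 0.0347, each 0.435 when adjusted over 91 pairs), and 0.530 with Jun 1389528_s_at. Fos on 1371283_at had -0.686, -0.838 and -0.221 with the same 3 probe sets. These are correlations over the same 6 arrays and are not independent of each other.

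**Figure D4:**
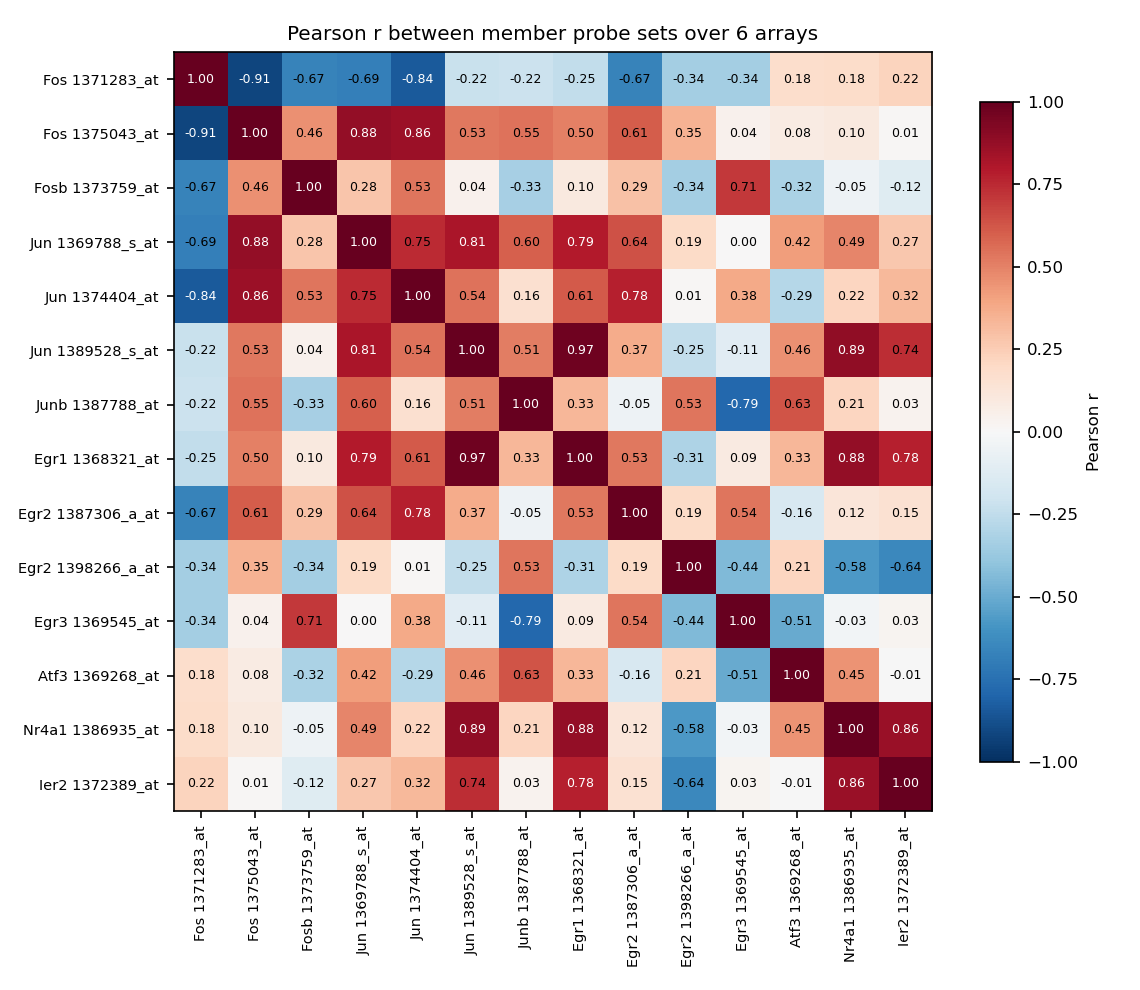
Pearson r between all pairs of the 14 member probe sets over the 6 arrays, red for positive and blue for negative. Jun 1389528_s_at, Egr1, Nr4a1 and Ier2 form a red group, and Fos 1371283_at is blue against Fos 1375043_at and all Jun probe sets.

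Genes outside the group followed Egr1 as closely as Jun did. Among 429 genes brighter than the median probe set that varied by at least 0.5, those with the highest r to Egr1 over the 6 arrays were Coro2b, a coronin of the actin cytoskeleton (0.995), the mitotic gene Prc1 (0.992), Ccn2, a matricellular gene also known as connective tissue growth factor (0.992), the cell cycle factor Foxm1 (0.984) and the cytokinesis gene Racgap1 (0.982). Coro2b read 8.07, 8.19 and 8.23 in Dahl S and 8.36, 8.46 and 8.60 in the congenic hearts. Coro2b, Prc1, Ccn2, Foxm1 and Racgap1 all lacked overlap between the strains, as Egr1 did. Their r with Egr1 therefore includes the strain difference, and it was not computed on strain-centred values. For Fos the closest were Arhgap32 (0.87), Sobp (0.86), Tmc4 (0.81), Zfp800 (0.74) and Adam22 (0.74) on 1371283_at. On 1375043_at, examined after the values had been seen, they were Pnpla3 (0.93), Pde3b (0.92), Postn (0.92), Rbp4 (0.90) and Hsd17b12 (0.90). Sobp (-0.87), Tmc4 (-0.81) and Adam22 (-0.77) were among the 5 most opposed to that probe set. With so few arrays, high values of r arise for some of any 429 genes, so these are a description only.

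**Figure D5:**
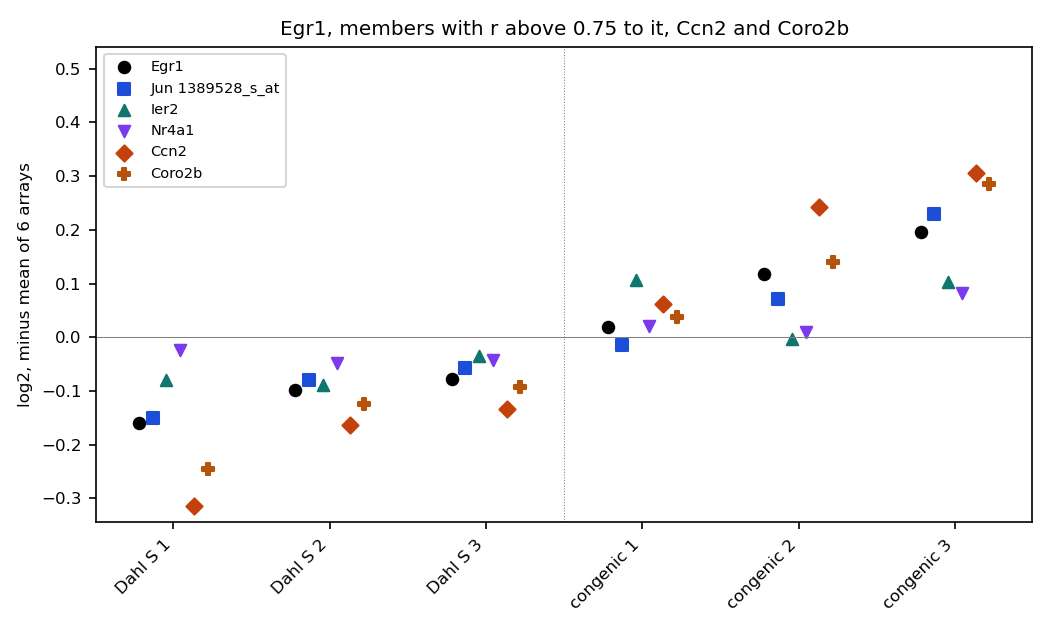
Log2 values minus the mean of the 6 arrays for Egr1, the members with r above 0.75 to it (Jun, Ier2 and Nr4a1) and the genes Ccn2 and Coro2b, by array, with a dotted line between the strains. On Dahl S arrays all 6 genes lie below 0, and on congenic array 3 all lie above it.

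No gene of the wider early response was called. In 5 lists with 118 genes, 105 were measured, limma called 0, and 9 (8.57%) reached an unadjusted p under 0.05, where 7.03% of all genes did. Of these 9, 4 were higher and 5 lower in the congenic heart. The count was 4 without Dahl S array 2 and 3 without congenic array 3. Of 14 relatives of the members, all measured, 0 had an unadjusted p under 0.05 and the median difference was 0.04. Jdp2, a Jun dimerization partner, differed by 0.15 (adjusted p = 0.773), Atf4 by 0.13 and Nr4a3 by -0.09. Of 25 measured genes of the signalling that acts on the members, such as Srf and the kinases, 0 had an unadjusted p under 0.05 and the median was -0.02. Their lowest p were those of the kinases Rps6ka5 (-0.13) and Mapk14 (-0.11) and of the muscle transcription factor Mef2a (-0.08).

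Other early response genes, 42 of them measured, had a median difference of 0.03. At an unadjusted p under 0.05 there were 2 above and 4 below 0, where 3.47% and 3.55% of all genes were. Ccn2 had the smallest p, with 10.28, 10.43 and 10.46 in Dahl S and 10.66, 10.84 and 10.90 in the congenic hearts, a difference of 0.41 (SE 0.08, limma adjusted p = 0.606). Ptgs2, the inducible cyclooxygenase, differed by 0.27 on a dim probe set with means of 4.39 and 4.66. The lower ones were Tiparp (-0.22), the NF-kappaB inhibitor Tnfaip3 (-0.25), the chemokine gene Cxcl1 (-0.20) and Nfil3 (-0.14), with adjusted p from 0.721 to 0.743. Over all 42 genes, 5 were higher and 5 lower without overlap between the strains' arrays, where 5.89% and 8.75% of all genes were.

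Feedback inhibitors lay on both sides of 0, 9 above and 7 below. Of 16 measured, 3 reached an unadjusted p under 0.05, where 7.03% of all genes did. Of these 3, 2 lay above and 1 below 0. Nab2, a corepressor that binds Egr proteins, read 7.38, 7.33 and 7.25 in Dahl S and 7.45, 7.46 and 7.48 in the congenic hearts, a difference of 0.14 (SE 0.06, limma adjusted p = 0.736). Dusp4, a phosphatase of MAP kinases, differed by 0.24 and its relative Dusp5 by -0.17. Of 8 measured heat shock and stress genes 0 had an unadjusted p under 0.05 and the median was -0.04. Their lowest p were those of Hspb1 (-0.11), Hsph1 (-0.08) and Ddit3 (0.05).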

How the data were processed

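RNA from rat hearts was measured on 6 Affymetrix rat arrays, 3 per strain. RMA is named in the submitters' processing notes, and the authors' deposited table holds its log2 values, which include background correction and normalization across arrays. Its version was not stated there. No further scaling was applied for the main results. Of 31099 probe sets, 57 controls were set aside. Probe sets were named through the platform annotation, updated by gene ID through RefSeq GRCr8: 20826 had 1 gene, 436 several and 9780 none.

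The strain term was fitted alone with limma 3.58.1 (R 4.3.3), using moderated variances and Benjamini-Hochberg adjustment over 31042 probe sets, with calls at an adjusted p under 0.05. The code was tested on simulated data. The probe set with the highest mean stood for its gene. Correlations used an exact permutation test over the 720 orders of the arrays, two-sided. Plots were drawn with matplotlib 3.10.9.

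Members and lists were chosen with earlier results of these data known. The rule named all members, any called gene and the 3 genes of smallest p per related list, and the 5 genes most like Fos and Egr1. Other genes of those lists at an unadjusted p under 0.05 were named in addition to the rule. The airway genes were picked after their values had been seen. Same-numbered arrays of the strains did not deviate together (r from -0.183 to -0.058), and nothing ties a number to a cage. Pools are separate samples of 2 animals.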

Additional observations from a re-analysis of the deposited data

How the results depend on the processing

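No member probe set was called in any of the 13 alternative fits, and the median over the members lay above 0 in each. It was 0.14 in the fit on brighter probe sets, which held only 5 of the 10, and 0.06 to 0.11 in the others. Egr1, all 3 Jun probe sets, Nr4a1 and Ier2 kept their sign in these 13, and both Egr2 probe sets in the 12 that held them. The limma unadjusted p of Egr1 was under 0.05 in all 13. That of Ier2 was 0.056 with an intensity trend and 0.136 without congenic array 3. For Jun 1389528_s_at it was 0.128 without that array.

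Over all probe sets the count called, 11, was 5 to 6 with 1 array left out and 5 with the replicate block. It was also 5 when arrays were blocked by hybridization-control level, and 2 in the 4 arrays where that level was low. It was 16 with an intensity trend, 9 with quantile normalization, 9 on brighter probe sets and 11 with median centring. The block on replicate number, which the labels do not tie to a pairing, changed no member's call. Pairs of members at r of 0.8 or more, 4 of 45, were 2 by Spearman rho and 4 to 7 with 1 array left out. Genes of the related lists at an unadjusted p under 0.05, 9 of 105, were 5 within the 4 arrays of low level and 3 to 9 with 1 array left out.

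Signs turned for Atf3, Egr3, both Fos probe sets, Fosb and Junb. Quantile normalization gave -0.00099 for Atf3, -0.025 for Fosb and 0.0074 for Junb. Within the 4 arrays of low level Atf3 was -0.031, Fos 1371283_at 0.051 and Junb 0.018. With 1 array left out the ranges were -0.062 to 0.085 for Atf3, -0.0031 to 0.14 for Egr3, -0.21 to 0.25 for Fos 1371283_at, -0.11 to 0.36 for Fos 1375043_at, -0.037 to 0.031 for Fosb and -0.0898 to 0.038 for Junb; the cause was not tested. The number of arrays and dim signal for Fos, Fosb, Egr2, Egr3 and Atf3 limit these results.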
